A study of Mus musculus with 24 samples.

Results

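The mouse microRNA precursors mir-322, mir-503, mir-351 and mir-450b were followed in cultured microglia and in the extracellular vesicles (EVs) these cells release. Listed as mmu-mir-322, mmu-mir-503, mmu-mir-351 and mmu-mir-450b, they are 4 of the 1187 precursors in the count tables and were found by these names. They lie close together on the X chromosome, and they were picked because earlier results of these data showed lower levels in cells after LPS and TGF-β than in control cells. BV2, an immortalised mouse microglial cell line, was kept as control or exposed for 72 h to TGF-β at 50 ng/mL, IL-10 at 50 ng/mL or LPS at 100 ng/mL, and small RNA of the cells and of their EVs was sequenced. Each of the 8 groups (4 cell groups and 4 EV groups) had 3 libraries. The labels do not say what the control cells received. Nor do they name separate cultures behind the libraries, so p-values measure only the spread between these libraries, which may be technical.

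MicroRNAs are cut from hairpin precursors and guide Argonaute proteins to messenger RNAs, chiefly by pairing through the seed near the 5′ end. Neighbouring precursors such as these can be cut from a shared primary transcript, and their mature levels can still differ through processing and stability. miR-322 (the mouse counterpart of human miR-424) and miR-503 belong to the extended miR-15/16 family, known for repressing cell cycle regulators, and miR-351 carries the seed of the miR-125 family. LPS is a bacterial cell wall component that activates microglia through TLR4, whereas IL-10 and TGF-β are cytokines known for restraining microglial activation.

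The mature sequences of the members show which families they can share targets with. They are given from RefSeq (GRCm38.p6), with the seed, bases 2 to 8, in capitals. All 4 members matched RefSeq by name. The build the authors used is not given in the sources used here, so the positions belong to RefSeq and not to the count tables. miR-322-5p lies at chrX:53054306-53054327, miR-503-5p at chrX:53054027-53054049, miR-351-5p at chrX:53053315-53053338 and miR-450b-5p at chrX:53048044-53048065, all on the minus strand.
miR-322-5p: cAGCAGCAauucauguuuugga
miR-503-5p: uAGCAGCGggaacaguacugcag
miR-351-5p: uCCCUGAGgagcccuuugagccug
miR-450b-5p: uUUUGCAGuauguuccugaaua

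For comparison, the relatives in sequence were read from the same table. The first pair belongs to the miR-15/16 family, the second to the miR-125 family, and the last pair comes from the same stretch of the X chromosome as the members.
miR-16-5p: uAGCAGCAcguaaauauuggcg
miR-15b-5p: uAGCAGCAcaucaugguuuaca
miR-125a-5p: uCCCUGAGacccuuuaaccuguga
miR-125b-5p: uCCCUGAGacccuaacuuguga
miR-450a-5p: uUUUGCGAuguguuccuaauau
miR-542-3p: uGUGACAGauugauaacugaaa

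The 4 members carry 4 different seeds over bases 2 to 8. miR-322-5p has the same bases 2 to 8 as miR-16-5p and miR-15b-5p, while miR-503-5p shares bases 2 to 7 with them and differs at base 8. miR-351-5p begins with the same 8 bases as miR-125a-5p and miR-125b-5p. miR-450b-5p begins with the same 6 bases as miR-450a-5p, and they then part inside the seed.

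In RefSeq, the first base of mir-503 lies 295 bases downstream of the first base of mir-322, and that of mir-351 lies 996 bases downstream. These 3 hairpins lie inside the long non-coding RNA gene C430049B03Rik. A second stretch follows outside that gene model, with mir-542 at 4862 bases, mir-450a-2 at 5982, mir-450a-1 at 6105 and mir-450b at 6271. The members thus comprise the whole first stretch and the last hairpin of the second. The count tables list each precursor without separating its arms, so a value below is the sum of whatever was counted for that hairpin.

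Cell libraries held between 185400 and 409969 counts and EV libraries between 15071 and 28727. The myeloid marker list had counts for 7 of 7 precursors in cells, mir-223 and mir-511 included, and its summed level ran from 4159 to 47620 CPM (counts scaled to library total), highest in the LPS libraries (41280 to 47620). This sum was led by mir-146a, at a mean of 11340 CPM in cells, and does not stand for each marker. mir-223 was lower after LPS than in control cells, at -0.66 ± 0.24 (SE) on the log2 scale. In EVs, 5 of the 7 had counts, with mir-223 and mir-511 at 0, and the sum ran from 677 to 6379 CPM. A single precursor, mir-6236, took 49.9% to 79.5% of each EV library. Of 8 muscle markers, 5 had counts in EVs, led by mir-1a-1, with a summed level of 193 to 1575 CPM against at most 16.2 CPM in cells. The other 3, mir-133a-1, mir-208a and mir-499, were at 0 in EVs. Red cell markers summed to 0 to 1411 CPM in EVs, with a median of 0, against at most 5.72 CPM in cells. Neuron and glia markers summed to 0 to 5545 CPM in EVs, with a median of 123, against 88.2 to 336 CPM in cells. Fibroblast and smooth muscle markers had counts for 5 of 5 precursors in cells and summed to 355 to 473 CPM in control cells, 184 to 325 after LPS, 499.8 to 588 after IL-10 and 318 to 572 after TGF-β.

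In control cells, mir-322 ranked 96th, mir-351 123rd, mir-503 197th and mir-450b 251st of the 550 precursors with a count. Together the 4 members took 0.138% ± 0.0148 (SD, n = 3) of a control cell library. The share was 0.142% ± 0.0083 after IL-10, 0.0686% ± 0.00506 after TGF-β and 0.049% ± 0.00363 after LPS (SD, n = 3 each). Cells treated with LPS or TGF-β thus gave less than control or IL-10 cells in every library, since the lowest control library was at 0.122% and the highest TGF-β library at 0.0737%. The fibroblast and smooth muscle marker sum was also lower in LPS than in control libraries and higher in IL-10 libraries, while TGF-β and control libraries overlapped, and its part in the members' levels was not tested. Because each library is a bulk sample, fewer cells holding a precursor and less of it per cell cannot be told apart.

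mir-322, the most abundant member, gave 199, 271 and 234 counts in the control cell libraries, 79, 53 and 66 after LPS, 285, 266 and 289 after IL-10 and 97, 130 and 143 after TGF-β. Scaled by library total and by edgeR's TMM factors, its level was 628.5 ± 80.8 normalised CPM in control cells, 818 ± 57.3 after IL-10, 388 ± 37.5 after TGF-β and 366 ± 34.5 after LPS (SD, n = 3 each). The ordering was IL-10, control, TGF-β, LPS. Neighbours in that order did not overlap except for TGF-β and LPS, whose libraries ran from 345 to 416 and from 336 to 404 normalised CPM. These overlaps depended on the scaling. By library totals alone, IL-10 libraries (782 to 826.3 CPM) and control libraries (661 to 810.5 CPM) overlapped. The highest LPS library (338 CPM) then lay below the lowest TGF-β library (342.5 CPM).

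mir-351, which carries the miR-125 seed, had 163, 185 and 160 counts in control cells and 21, 30 and 30 after LPS. It had 170, 157 and 191 counts after IL-10 and 64, 69 and 73 after TGF-β. Its normalised level was 454 ± 26.1 CPM in control cells, 503 ± 33.4 after IL-10, 218 ± 11.5 after TGF-β and 154 ± 42.2 after LPS (SD, n = 3 each). Control and IL-10 libraries overlapped. The TGF-β libraries lay below both, and the LPS libraries, at most 190 normalised CPM, lay below the lowest TGF-β library at 205.

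mir-503, whose mature product differs from the miR-15/16 seed at base 8, had 30, 37 and 37 counts in control cells and 32, 24 and 32 after IL-10. After LPS it had 5, 9 and 7 counts, and after TGF-β 13, 13 and 7. Its normalised level was 93.5 ± 15.9 CPM in control cells, 85 ± 4.51 after IL-10, 40.2 ± 15.9 after LPS and 35.8 ± 14.2 after TGF-β (SD, n = 3 each). The control and IL-10 libraries overlapped, as did the LPS and TGF-β libraries, and no library of the first pair overlapped one of the second.

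mir-450b, from the second stretch, was the scarcest member. It had 11, 8 and 7 counts in control cells, 0, 4 and 1 after LPS, 14, 9 and 15 after IL-10 and 6, 10 and 8 after TGF-β. The normalised level was 23.3 ± 6.02 CPM in control cells, 36.4 ± 5.82 after IL-10, 25.3 ± 5.84 after TGF-β and 10.3 ± 13.4 after LPS (SD, n = 3 each). Every neighbouring pair in this order overlapped. The LPS libraries spread from 0 to 25.4 normalised CPM, so at this depth its level after LPS is poorly fixed.

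**Figure D1:**
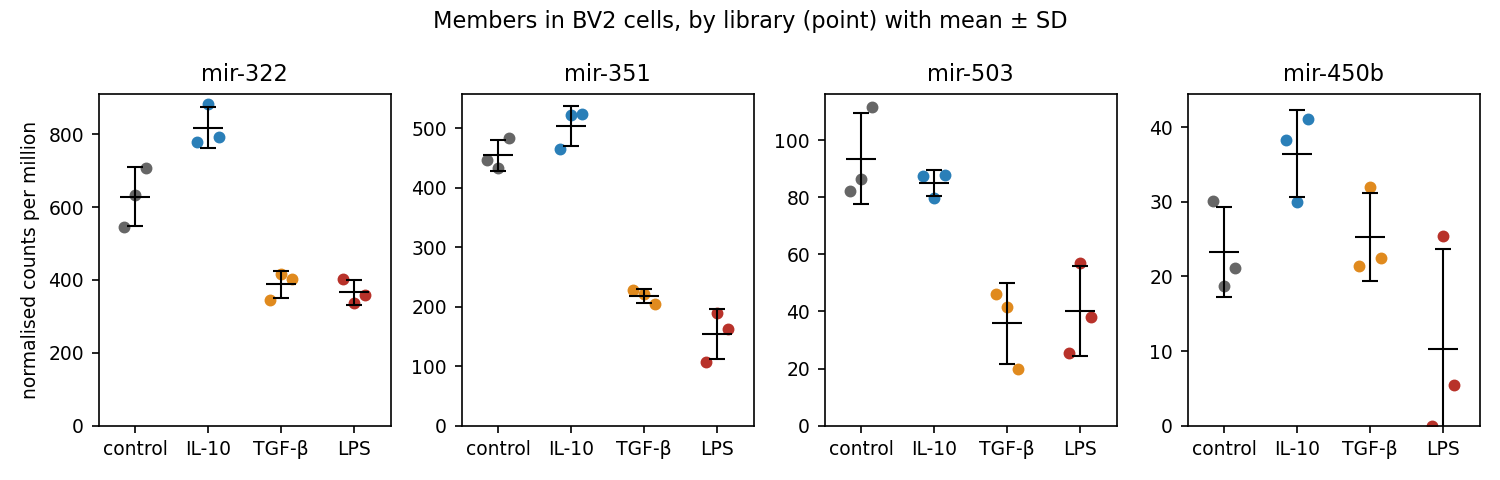
Normalised CPM (linear axes from 0) of each member in the 12 cell libraries, by treatment. Points are libraries and bars are the mean ± SD of 3 libraries. For mir-322, mir-351 and mir-503, all 6 LPS and TGF-β libraries lie below all 6 control and IL-10 libraries. The mean of mir-450b after TGF-β lies near that of control (25.3 against 23.3).

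After LPS, mir-351 had the lowest level relative to control among the members, and mir-322 the least lowered. The log2 fold change from edgeR was -1.58 ± 0.18 (SE) for mir-351, -1.27 ± 0.74 for mir-450b, -1.24 ± 0.37 for mir-503 and -0.77 ± 0.15 for mir-322. These values belong to the contrast the members were picked on, so they are a description with no test. At an adjusted p under 0.05 over all 259 precursors tested, 3 of the 4 members would count as lower, where 11.2% of all precursors tested were called lower and 20.8% higher. Groups did not overlap for these 3, as for 47.5% of all precursors. The median over all precursors tested was 0.09 on the log2 scale. Without TMM scaling that median was -0.32, the split of calls moved from 54 higher and 29 lower to 30 higher and 101 lower, and mir-351 stood at -1.99 and mir-322 at -1.19. Leaving out the second LPS library moved mir-450b to -3.08, since 4 of its 5 counts after LPS are in that library, and 4 members then met the call rule. Without the first LPS library 2 members met it.

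After TGF-β, the first stretch was lower and mir-450b was not. The log2 fold change was -1.40 ± 0.33 (SE) for mir-503, -1.06 ± 0.15 for mir-351, -0.69 ± 0.14 for mir-322 and 0.12 ± 0.50 for mir-450b. This contrast also chose the members and is given with no test. The same call rule would count 3 of 4 as lower, where 3.09% of precursors tested were called lower and 3.47% higher. Groups did not overlap for those 3, as for 25.9% of all precursors tested. Without TMM scaling the called precursors moved from 9 higher and 8 lower to 5 higher and 19 lower. The LPS and TGF-β contrasts share the control libraries, so the similarity of their member values is not independent.

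After IL-10, no member would be called, where 5.41% of precursors tested were called higher and 2.32% lower. mir-322 stood at 0.38 ± 0.13 (SE) above control on the log2 scale. Its IL-10 and control libraries did not overlap in normalised CPM, as for 32% of precursors tested, but overlapped by library totals alone. mir-450b stood at 0.65 ± 0.46 and mir-503 at -0.13 ± 0.28. mir-351 stood at 0.15 ± 0.14, which became -0.07 without TMM scaling, where mir-322 stood at 0.17 and the median of all precursors at -0.17. Without TMM scaling the calls moved from 14 higher and 6 lower to 11 higher and 18 lower.

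Set directly against TGF-β cells, LPS cells had less mir-351, with a log2 difference of -0.52 ± 0.20 (SE), which was -0.29 ± 0.21 without the first LPS library. In normalised CPM the other members overlapped between LPS and TGF-β, at -0.08 ± 0.16 for mir-322, 0.16 ± 0.43 for mir-503 and -1.40 ± 0.74 for mir-450b. By library totals alone mir-322 stood at -0.35 ± 0.16 (SE), and its LPS libraries lay below its TGF-β libraries. Without the second LPS library the mir-450b difference was -3.15, and without the first -0.76. Against IL-10 cells, LPS cells were lower for each member, from -1.11 ± 0.37 for mir-503 to -1.93 ± 0.69 for mir-450b. In this contrast 126 of the 259 precursors tested had an unadjusted edgeR p under 0.05, in either direction. Without the second LPS library the mir-450b difference from IL-10 cells was -3.65, and without the first -1.28. TGF-β cells stood below IL-10 cells, at -1.07 ± 0.14 for mir-322, -1.21 ± 0.15 for mir-351 and -1.27 ± 0.33 for mir-503, whereas mir-450b overlapped at -0.53 ± 0.47.

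Ratios between members within a library do not depend on how libraries are scaled. The ratio of mir-351 to mir-322 counts was 0.819, 0.683 and 0.684 in control cells, 0.596, 0.59 and 0.661 after IL-10, 0.66, 0.531 and 0.51 after TGF-β and 0.266, 0.566 and 0.455 after LPS. Each treated library lay below each control library in this ratio, by a narrow margin for IL-10 (0.661 against 0.683). All treatments are set against the same control libraries. How often the ratios of other precursor pairs part in this way was not counted, here or for the ratios below. The group means were 0.729 ± 0.0782 in control cells, 0.616 ± 0.0394 after IL-10, 0.567 ± 0.0812 after TGF-β and 0.429 ± 0.152 after LPS (SD, n = 3 each).

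The ratio of mir-503 to mir-322 was 0.149 ± 0.0107 in control cells, where it ran from 0.137 to 0.158. It was 0.104 ± 0.0123 after IL-10, below each control library. After TGF-β it was 0.0943 ± 0.0428, also below each control library, and after LPS 0.113 ± 0.0537, with a range of 0.0633 to 0.17 that includes the control values (SD, n = 3 each). The ratio of mir-450b to mir-322 was 0.0382 ± 0.0148 in control cells and 0.0649 ± 0.0108 after TGF-β (SD, n = 3 each). Its lowest TGF-β library, at 0.0559, lay just above the highest control library, at 0.0553.

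**Figure D2:**
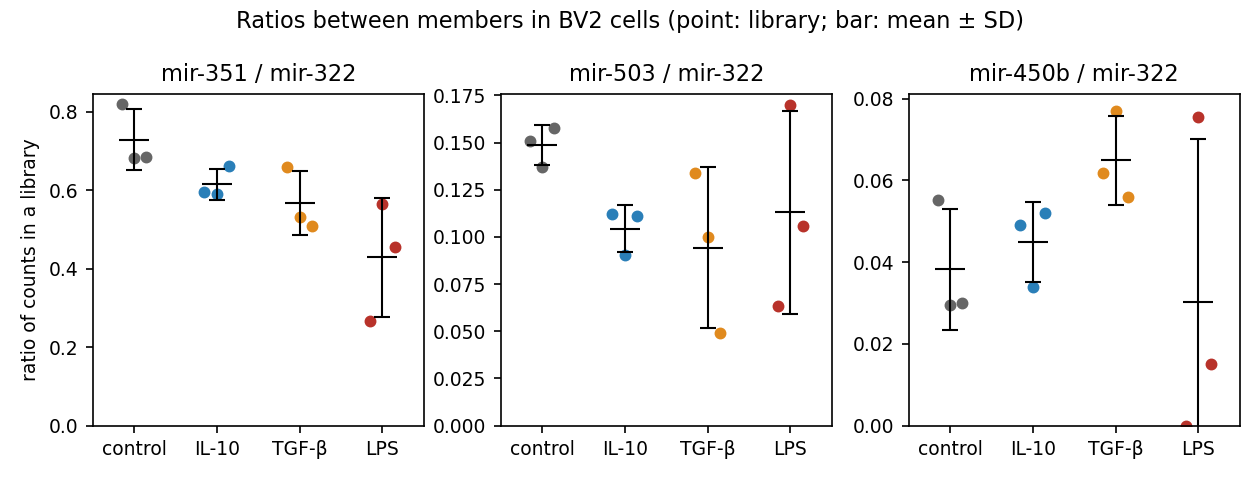
Counts of mir-351, mir-503 and mir-450b divided by the counts of mir-322 in the same cell library (linear axes from 0), by treatment. Points are libraries and bars are the mean ± SD of 3 libraries. The mir-351 ratio is highest in the 3 control libraries (0.683 to 0.819) and lowest on average after LPS (0.429).

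As summed counts, mir-322 made up 52.3% ± 2.55 of the 4 members' counts in control cells, mir-351 38% ± 2.16, mir-503 7.76% ± 0.597 and mir-450b 1.97% ± 0.654 (SD, n = 3). After LPS the part of mir-322 was 64.6% ± 10.1 and that of mir-351 26.7% ± 5.93 (SD, n = 3). After TGF-β mir-450b made up 3.77% ± 0.642 (SD, n = 3), above each control library.

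The rest of the cluster was too scarce to be tested: mir-542, mir-450a-2 and mir-450a-1 all missed the filter on low counts. mir-542 had 8, 5 and 8 counts in control cells, 1, 0 and 0 after LPS, 7, 9 and 13 after IL-10 and 4, 4 and 2 after TGF-β. Its share of all counts after LPS was 0.0752 of that in control cells (95% interval 0.00182 to 0.468). After TGF-β the ratio was 0.512 (0.215 to 1.13) and after IL-10 1.31 (0.722 to 2.42). mir-450a-1 and mir-450a-2 each had 1 count in the 3 LPS libraries together, against 11 and 6 in control cells. Their ratios after LPS were 0.144 (0.00334 to 0.988) and 0.263 (0.00573 to 2.17). Both give rise to the same mature miR-450a-5p, so their counts may be divided arbitrarily between them. These intervals cover counting error only.

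Put on the same scale of shares, mir-450b stood at 0.304 (0.0911 to 0.804) of control after LPS and at 0.992 (0.545 to 1.8) after TGF-β. mir-322 stood at 0.565 (0.496 to 0.641) after TGF-β, mir-351 at 0.436 (0.369 to 0.513) and mir-503 at 0.341 (0.223 to 0.509). The 3 hairpins of the first stretch summed to 1316 counts in control cells, 1446 after IL-10, 609 after TGF-β and 300 after LPS. The 4 hairpins of the second stretch summed to 64, 79, 44 and 8 in the same order. This split was chosen after its values were seen. After LPS the ratio to control was 0.36 (0.317 to 0.409) for the first stretch and 0.198 (0.0818 to 0.413) for the second. After TGF-β it was 0.497 (0.451 to 0.548) and 0.739 (0.491 to 1.1), and after IL-10 1.04 (0.967 to 1.12) and 1.17 (0.832 to 1.65). Whether the stretches differ from each other was not tested, since these contrasts chose the members.

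**Figure D3:**
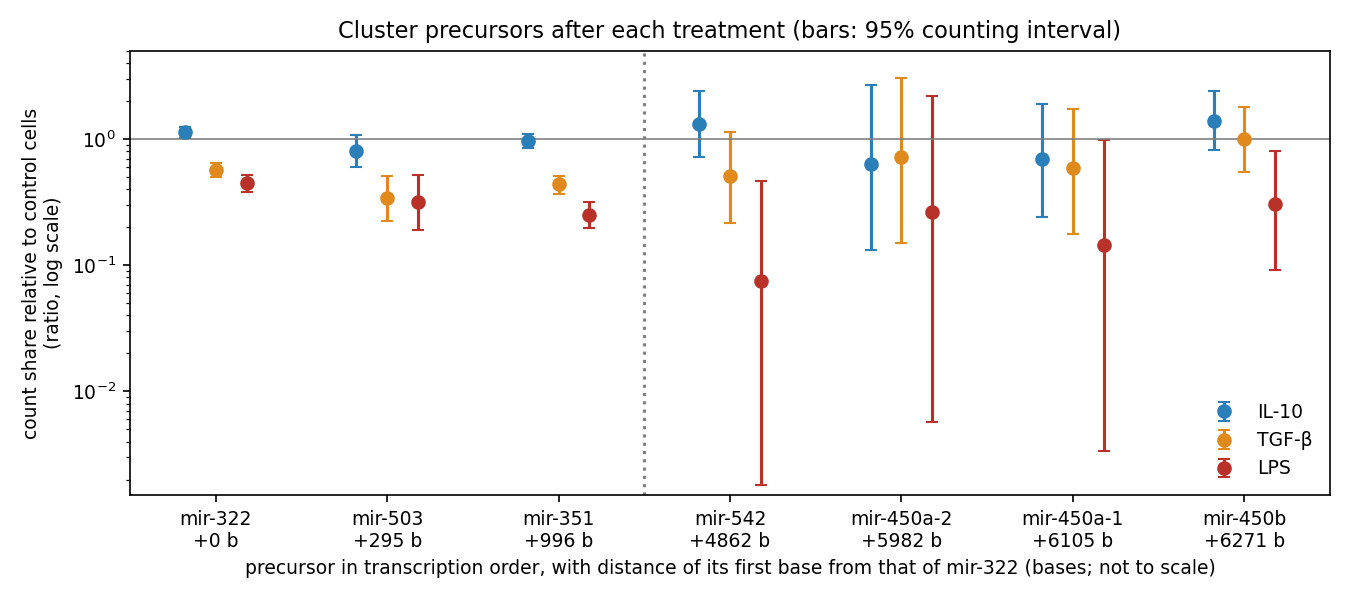
Share of all counts in treated cells divided by that in control cells (log axis, summed over 3 libraries) for the 7 hairpins of the stretch in transcription order, with the distance of each from mir-322 in bases. Bars are 95% intervals for counting error and the dotted line parts the stretches. After TGF-β the first 3 hairpins lie at 0.341 to 0.565 with intervals below 1, and mir-450b lies at 0.992 with an interval of 0.545 to 1.8.

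Precursors with the members' seeds did not share one pattern in cells. Of the 10 precursors on the miR-15/16 list, 4 passed the filter. After LPS 1 was called higher and 1 lower, with a median of 0.34 on the log2 scale against 0.09 for all precursors tested. mir-16-2 rose from 433 to 575 normalised CPM, a log2 fold change of 0.41 ± 0.15 (SE, edgeR adjusted p = 0.0452), which became -0.01 (adjusted p = 0.983) without TMM scaling and 0.32 (adjusted p = 0.0993) with DESeq2's size factors. mir-15a fell from 110 to 58.2 normalised CPM, by 0.91 ± 0.34 on the log2 scale (edgeR adjusted p = 0.0472), and was lower under each scaling tried. mir-15b stood at 0.40 ± 0.17 (edgeR adjusted p = 0.0701). After TGF-β none of the 4 was called, with mir-16-1 at 0.35 ± 0.15, mir-16-2 at 0.35 ± 0.15, mir-15b at -0.10 ± 0.16 and mir-15a at -0.73 ± 0.30. After IL-10 none was called either, with mir-15a at -0.86 ± 0.30 (SE, edgeR adjusted p = 0.0694) and at -1.07 (adjusted p = 0.0408) without TMM scaling. mir-15a was thus lower than in control cells after each treatment, and these contrasts share the control libraries. mir-16-1 and mir-16-2 yield the same mature miR-16-5p and may share reads.

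Of the 5 precursors on the miR-125 list, which share the seed of miR-351, 2 passed the filter and neither was called in cells. mir-125b-1 and mir-125b-2 had 124 and 120 counts over the 12 cell libraries and yield the same mature sequence, so they are treated as the same measurement. After LPS mir-125b-1 stood at -1.06 ± 0.47 (SE, edgeR adjusted p = 0.0873), and without TMM scaling at -1.46 (adjusted p = 0.00865). After TGF-β it stood at -1.15 ± 0.40 (edgeR adjusted p = 0.0889), and without TMM scaling at -1.29 (adjusted p = 0.0382).

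Other precursors of the X chromosome gave no common direction. RefSeq places 92 microRNA genes there, of which 91 matched a precursor and 87 were not members. Of 21 tested, 6 were called higher and 2 lower after LPS, with a median of 0.06 on the log2 scale. mir-222 and mir-221, a pair on the same chromosome known for targeting the cell cycle inhibitor p27, rose by log2 fold changes of 2.29 ± 0.13 and 1.66 ± 0.14 (SE, edgeR adjusted p = 2.56e-12 and 8.97e-10). mir-223, a myeloid microRNA, fell by 0.66 ± 0.24 and mir-532 fell by 0.35 ± 0.13 (SE, edgeR adjusted p = 0.043 for each). After TGF-β 1 was called higher and 2 lower. mir-504 rose by 2.11 ± 0.45, and mir-222 and mir-223 fell by 1.05 ± 0.14 and 1.70 ± 0.25 on the log2 scale (SE, edgeR adjusted p = 0.00309, 4.14e-05 and 4.14e-05). The named X-linked precursors kept their directions with library totals and with DESeq2's size factors. After IL-10, 3 were called higher and 1 lower.

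Across the 12 cell libraries the members of the first stretch followed each other. Pearson's r of log2 CPM was 0.882 between mir-322 and mir-351, 0.876 between mir-351 and mir-503 and 0.755 between mir-322 and mir-503. mir-450b was at 0.739 with mir-351, 0.561 with mir-503 and 0.479 with mir-322. These are descriptions with no test, since the 4 groups set most of the spread and all values share the same libraries. Among the 258 other precursors that passed the filter, mir-532 was most like mir-322 (r = 0.941), ahead of mir-351 and of mir-501 (0.835). mir-511, a myeloid microRNA, was most like mir-351 (0.917), followed by mir-322 and mir-503. For mir-503 the nearest was mir-351, then mir-125b-2 (0.864) and mir-223 (0.84). For mir-450b the nearest were mir-467a-1 (0.806), mir-935 (0.784) and mir-511 (0.777).

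In EVs the members were near the limit of detection. Over the 12 EV libraries and 224835 counts, mir-351 had 42 counts in 8 libraries, mir-322 had 13 in 9 libraries, mir-503 had 4 in 2 libraries and mir-450b had 0. A count of 0 allows a mir-450b share of up to 0.00133% of all EV counts. At the shares of the matching cells, 4.96 counts of mir-450b would be expected over all EV libraries by library totals, and 1.07 with mir-6236 and mir-6240 left out of the totals. Within a group the 95% interval of the EV to cell ratio by library totals reached from 0 to at least 2.18, so a difference from cells was not detectable in any single group.

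mir-322 had 1, 1 and 2 counts in control EVs, 1, 1 and 2 after LPS, 0, 1 and 1 after IL-10 and 0, 3 and 0 after TGF-β. Counts of mir-503 came only from LPS EVs, with 0, 1 and 3. mir-351 had 0, 0 and 4 counts in control EVs, 0, 2 and 2 after LPS, 21, 5 and 0 after IL-10 and 1, 4 and 3 after TGF-β. The 21 counts in the first IL-10 EV library are as many as the other 11 EV libraries hold together. That library also had the lowest mir-6236 share of its group (61.2% against 79.5% and 78.2%) and the highest share of let-7 precursors (9.33% against 2.51% and 2.81%). Its miR-125 precursors, which share the seed of miR-351, had 10 counts, against 0 and 8 in the other IL-10 EV libraries. These sums add both mir-125b copies, so the same reads may enter more than once.

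Between treatments in EVs none of the 4 members could be tested, since none passed the filter on low counts. With no filter, over 698 precursors, edgeR called none of the members this fit held, where 1.43% of precursors were called in LPS EVs, 0.43% in TGF-β EVs and 0% in IL-10 EVs. The fit did not hold mir-450b, which had no EV count. mir-503 had no count in control, IL-10 or TGF-β EVs, so its comparisons after IL-10 and TGF-β could not give a call. The lowest unadjusted p of a member was 0.127 (edgeR), for mir-351 after IL-10 at 2.28 ± 1.49 (SE) on the log2 scale. With counts this low, changes in EVs like those in cells were not detectable.

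How EVs compare with cells depends on whether mir-6236, at 49.9% to 79.5% of an EV library, is counted in the total. Taking library totals, mir-322 was at 0.112 of its share in cells in controls (95% interval 0.0306 to 0.289), with 4 counts where 35.6 would be expected. After LPS the ratio was 0.161 (0.0434 to 0.419), after IL-10 0.0509 (0.00616 to 0.185) and after TGF-β 0.157 (0.0322 to 0.461). With mir-6236 and mir-6240 left out of both totals the ratios were 0.634 (0.172 to 1.63) in controls, 0.404 (0.109 to 1.05) after LPS, 0.261 (0.0316 to 0.946) after IL-10 and 0.81 (0.166 to 2.39) after TGF-β. mir-322 was thus below its share in cells under each treatment by library totals, and without these 2 precursors the interval stayed below 1 only after IL-10. The intervals cover counting error only.

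mir-351 by library totals stood at 0.156 (0.0423 to 0.401) of its share in cells in controls, 0.393 (0.105 to 1.05) after LPS, 1.07 (0.695 to 1.59) after IL-10 and 0.75 (0.32 to 1.51) after TGF-β. Without the first IL-10 EV library the IL-10 ratio was 0.325. With mir-6236 and mir-6240 left out the ratios were 0.879 (0.239 to 2.26), 0.989 (0.263 to 2.63), 5.5 (3.56 to 8.16) and 3.88 (1.65 to 7.79) in the same order. mir-503 after LPS had 4 counts where 2.64 would be expected, a ratio of 1.52 (0.379 to 4.5). The ratio was 0.566 without the third LPS EV library and 3.81 (0.952 to 11.3) with mir-6236 and mir-6240 left out. In the other EV groups mir-503 had 0 counts where 5.25 (control), 4.11 (IL-10) and 1.71 (TGF-β) would be expected by library totals, and 0.932, 0.802 and 0.33 with those 2 precursors left out.

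**Figure D4:**
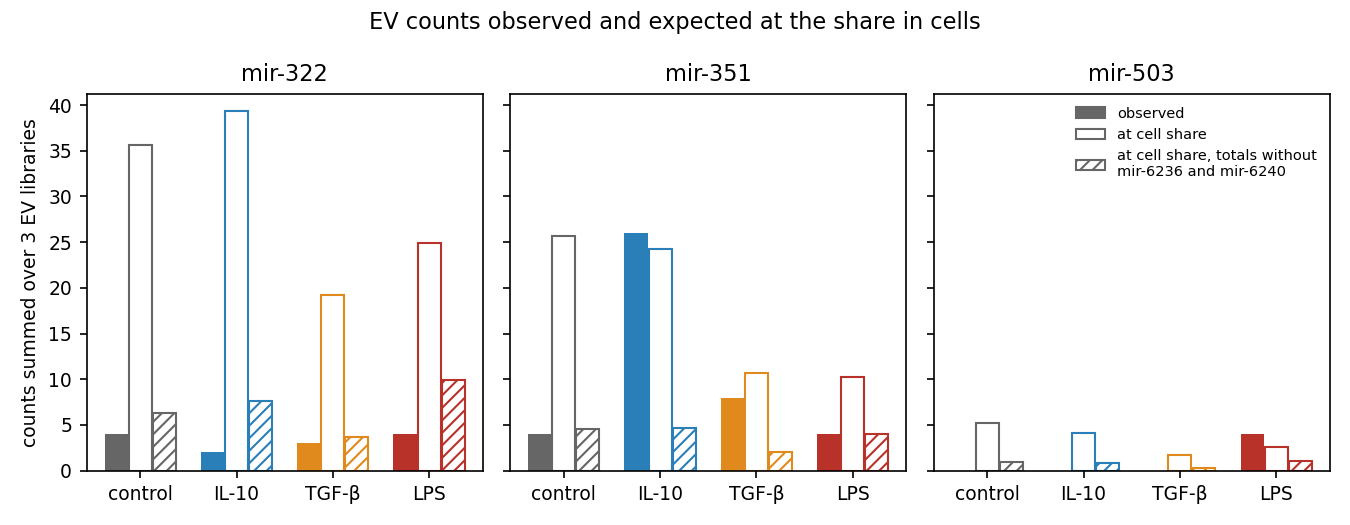
Counts of mir-322, mir-351 and mir-503 summed over the 3 EV libraries of each treatment (filled bars), beside the counts expected if EVs held the share found in cells, by library totals (open bars) and by totals without mir-6236 and mir-6240 (hatched bars). mir-322 lies below both expectations in each group (4 counts against 35.6 and 6.31 in controls), and mir-351 after IL-10 has 26 counts, 21 of them from 1 library.

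The comparison of EVs with cells after IL-10 is the one between EVs and cells that did not choose the members. There, after the filter on low counts, edgeR called 27.5% of 280 precursors higher and 15.7% lower in EVs, and 1 member in each direction. Groups did not overlap for 57.9% of the precursors. The members passed the filter only through the cells, where they are high, and mir-450b missed it, so neither this count nor the p of a member lower in EVs is read as a test. With no filter, over 892 precursors of which 23.2% were called, mir-351 stood at 1.67 ± 0.48 (SE, edgeR adjusted p = 0.00326) and mir-322 at -2.63 ± 0.94 (SE, edgeR adjusted p = 0.0268). After the filter, mir-351 was higher in IL-10 EVs by 2.08 ± 0.51 (SE) on the log2 scale (edgeR adjusted p = 0.00167), although its EV and cell libraries overlapped. The value was 0.50 (adjusted p = 0.686) without the first IL-10 EV library and 0.08 (adjusted p = 0.893) without TMM scaling. mir-322 stood at -2.22 ± 0.77 (SE, edgeR adjusted p = 0.0226) after the filter, with no overlap. It kept this direction under each alternative, but missed the threshold with DESeq2's size factors (-1.22, adjusted p = 0.344), with DESeq2's Wald test (-1.22, adjusted p = 0.35), with a stricter filter (-1.47, adjusted p = 0.234) and with the IL-10 groups alone (-1.84, adjusted p = 0.163). The edgeR call was also lost when any 1 of the 3 IL-10 cell libraries was left out (adjusted p = 0.0614 to 0.106), or the first IL-10 EV library (-1.53, adjusted p = 0.218). mir-503 was not called (edgeR adjusted p = 0.257) and, at 0 counts in IL-10 EVs, has no fold.

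The median of all precursors in this comparison was -0.80 on the log2 scale, and -2.81 without TMM scaling, where the calls moved from 77 higher and 44 lower to 53 higher and 166 lower. Muscle markers summed to 321 to 1298 CPM in IL-10 EVs and to at most 11.4 CPM in IL-10 cells. Red cell markers summed to 0 to 1411 CPM in IL-10 EVs and to at most 5.72 CPM in IL-10 cells. The part of both lists in the result was not tested. In the miR-15/16 list 4 precursors passed the filter, and mir-15b, at 0 in IL-10 EVs, was the 1 called lower. It had 8 counts over the 12 EV libraries against 1365 over the 12 cell libraries, so this call is not read as a test. With DESeq2's size factors (edgeR adjusted p = 0.119) or the stricter filter (0.112) mir-15b was not called. With library totals or no filter it was. The mir-125b copies, treated as the same measurement, were called higher in EVs. mir-125b-1 stood at 3.40 ± 1.02 (SE, edgeR adjusted p = 0.00916), and at 1.41 (adjusted p = 0.18) without TMM scaling. Its EV and cell libraries overlapped, and the miR-125 precursors together had 10, 0 and 8 counts in the IL-10 EV libraries. This sum adds mir-125a and both mir-125b copies, so the same reads may enter more than once.

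For the other treatments the values are descriptions, since their cell libraries chose the members. The log2 difference of EVs from cells was -1.01 ± 0.65 (SE) in controls, -1.41 ± 0.63 after LPS and -0.17 ± 0.80 after TGF-β for mir-322. For mir-351 it was -0.54 ± 0.90 in controls, -0.16 ± 0.96 after LPS and 2.08 ± 0.84 after TGF-β, the last of which reversed to -0.41 without TMM scaling and was 0.85 without the second TGF-β EV library. For mir-503 after LPS it was 1.73 ± 0.96. The counts behind these values are 3 to 8 per EV group, and in controls the 4 counts of mir-351 all come from the third EV library.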

How the data were processed

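Small RNA libraries of BV2 cells and EVs were prepared with a SMARTer small RNA kit and 18 cycles of PCR, per the labels' protocols. The authors deposited whole-number counts per microRNA precursor, 1187 in 8 tables. The 6 tables used hold 24 libraries, and the other 2 repeat their columns. The submitters' processing notes name DESeq2. Not given in the sources used here are the aligner, its reference build, the microRNA annotation and how reads of identical copies were assigned. Reads carry no stated molecular identifiers, so intervals cover counting error only. Intervals and limits use a level of 95% (exact binomial) and a floor of 3 counts for a 0.

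The members and the lists of relatives and markers were chosen with earlier results of these data known. Counts were fitted with edgeR 4.0.16 (quasi-likelihood F test, TMM, filterByExpr with a minimum count of 10), in 1 fit for the 12 cell libraries (259 precursors), 1 for the 12 EV libraries (71) and 1 for all 24 (280), with Benjamini-Hochberg adjustment over all precursors tested and a threshold of 0.05. Normalised CPM divides counts by library total and TMM factor. Tests of members were limited to contrasts not used to choose them. Named precursors were the members, the rest of the cluster, up to 4 per list by smallest p in LPS and TGF-β cells, and the 3 nearest each member by correlation. All 24 pairs of libraries within groups differed beyond sampling noise (chi-square per degree of freedom 2.58 to 11.5). The procedure was tested on simulated data. Alternatives were DESeq2 1.42.0 (size factors and Wald test), library totals, other filters, fewer groups, leaving out mir-6236 and mir-6240, leaving out each library, and a block by column number, added after seeing the data.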

Additional observations from a re-analysis of the deposited data

How the results depend on the processing

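For the members in cells against control, DESeq2's size factors and Wald test and the omission of mir-6236 and mir-6240 moved no log2 fold change by more than the spread between libraries. The same held for the stricter filter over mir-322 and mir-351, which alone passed it, and for the fit of 2 groups, which did not hold mir-450b after LPS or TGF-β. Library totals alone moved mir-322 to -1.19 and mir-351 to -1.99 after LPS, mir-351 to -1.22 after TGF-β, and mir-322, mir-503 and mir-351 to 0.17, -0.33 and -0.068 after IL-10. With no filter, mir-322 stood at -0.97 after LPS, mir-351 at 0.053 after IL-10 and at -1.16 after TGF-β. Precursors called after LPS numbered 83, and 131 with library totals. Leaving out 1 library gave ranges of -1.67 to -1.01 for mir-503 and -3.08 to -0.67 for mir-450b after LPS, 0.017 to 0.15 for mir-351 after IL-10 and -1.16 to -1.05 for mir-351 after TGF-β. Precursors called after IL-10 numbered 20, and between 5 and 21 with 1 library left out: 5 without control library 1, 13 without control library 3, 7 without IL-10 library 2 and 9 without IL-10 library 3.

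For EVs against cells after IL-10, mir-322 gave -1.22 (adjusted p = 0.344) with DESeq2's size factors, -1.22 (0.35) with its Wald test, -1.47 (0.234) with the stricter filter and -1.84 (0.163) with 2 groups, all from edgeR except the Wald test. The p of mir-322 is not read as a test under any setting, since it passed the filters only through the cells. Over left-out libraries mir-322 ran from -3.30 to -1.53 and mir-351 from 0.50 to 2.55. mir-351 gave 0.076 (edgeR adjusted p = 0.893) with library totals. Precursors called numbered 121, and 219 with library totals, 207 with no filter, 26 with the stricter filter, 62 with 2 groups and 79 to 148 with 1 library left out (79 without IL-10 cell library 2).

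For EVs against cells in the other groups, DESeq2's size factors gave mir-322 -0.18 in controls, -1.11 after LPS and 0.87 after TGF-β, and mir-351 3.13 after TGF-β. The Wald test gave -0.17, -1.11, 0.88 and 3.13 in that order, and the stricter filter -0.12, -1.13, 0.86 and 3.11. Library totals gave mir-322 -3.15, -2.61 and -2.65, and mir-351 -2.70, -1.36 and -0.41, a reversal after TGF-β, with mir-503 at 0.57 after LPS. With no filter, mir-322 stood at -1.32 in controls and -1.87 after LPS, and mir-351 at 1.13 after TGF-β. With 2 groups mir-322 stood at -0.70 in controls, and without mir-6236 and mir-6240 at -1.69 after LPS. Leaving out 1 library gave mir-322 -1.92 to -0.58 in controls and -1.71 to -1.11 after LPS, mir-503 0.57 to 1.88 after LPS and mir-351 0.85 to 2.51 after TGF-β.

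Between treatments in EVs only the fit with no filter held members, and it called none of them. No fold is given where a group is at 0, as for mir-351 in controls without EV library 3 and mir-322 after TGF-β without EV library 2. The causes of these shifts were not tested. The labels carry no replicate numbers, but the columns of each group are numbered 1 to 3, and a replicate block by column number was added after seeing the data. Same-numbered libraries of different groups did not deviate together (median r = -0.074 over 18 pairs in cells, 0.024 over 18 in EVs and 0.005 over 84 in all libraries), and 4 of 12 cell libraries, 6 of 12 EV libraries and 9 of 24 in all were most like their own number, so the numbers are not read as pairs. The 84 pairs mix cells and EVs of all treatments, so a pairing of cells with the EVs of their own treatment was not examined by itself. With the block, 77, 21 and 15 precursors were called in cells after LPS, IL-10 and TGF-β (83, 20 and 17 without it) and 117 in EVs against cells after IL-10 (121 without it). There mir-322 stood at -2.18 (edgeR adjusted p = 0.0327, not read as a test) and mir-351 at 2.09 (edgeR adjusted p = 0.00282). An EV library, with 15071 to 28727 counts, held 0 to 3 counts of mir-322, which limits every value for EVs.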
